A study of Mus musculus with 2 samples.

Results

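Monocyte-lineage cells were picked out of a mouse myeloid culture by their own transcripts, and their number, their gene expression and their differences with Cxxc5 knockdown are described here. A cell was taken as monocyte-lineage when the unique molecular identifiers (UMIs, each standing for 1 captured RNA molecule) of Csf1r, Ccr2, F13a1, Irf8, Ms4a6c and Lpl summed to at least 4 and to at least 0.03% of all UMIs of the cell. S100a8 and S100a9 together had to stay under 1% of the UMIs, which leaves out neutrophil-like cells. The class II antigen presentation genes H2-Aa, H2-Ab1, H2-Eb1 and Cd74 together had to stay under 0.1%, which leaves out dendritic-like cells. The rule chose 1211 of 8916 kept cells.

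The knockdown group was lineage-negative, Sca-1-positive, Kit-positive bone marrow cells (LSK cells, which hold the stem cells and early progenitors of blood) of C57BL/6 mice that carried a retroviral short hairpin RNA (shRNA) against Cxxc5. The control group was LSK cells of the same strain with a control shRNA. Both were sorted for the GFP of the virus and cultured over 3 days in 20% serum with 10 ng/ml each of SCF, a growth factor for progenitors, and GM-CSF. Marrow of 5 mice was used and each group was 1 library made from a pool of 5 samples, so no difference has a replicate check, and effects of the hairpin, the infection, the culture and the library cannot be told apart. Whether the pools came from the same mice is not clear. Intervals given below are exact 95% intervals that cover counting error only.

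Monocytes arise in the marrow from granulocyte-monocyte progenitors that switch off the granule programme and switch on the transcription factors Irf8 and Klf4. Their precursors begin to express Csf1r, the receptor of macrophage colony-stimulating factor, and then Ccr2, the chemokine receptor that lets monocytes leave the marrow. GM-CSF, given to these cultures, drives monocytes, neutrophils and dendritic cells from the same progenitors.

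The knockdown library gave 6015 barcodes with 62910229 UMIs and the control library 2925 barcodes with 49333454 UMIs. Of these, 6004 and 2912 cells passed the limits of at least 500 genes and at most 10% mitochondrial UMIs. The median monocyte-lineage cell held 11483 UMIs and 2962 genes in the knockdown library, against 18276.5 UMIs and 3730 genes in the control library. The median mitochondrial share of these cells was 4.0% in each library. The libraries shared 26 cell barcodes, and no barcode was a monocyte-lineage cell in both. Cxxc5 itself (ENSMUSG00000046668, chr18:35829397-35861688 on GRCm38, the build of all positions here) had 6 UMIs or 0.764 per 1000000 UMIs (CPM, the unit of all gene levels below) in monocyte-lineage cells of the knockdown library, against 79 UMIs or 8.55 CPM in the control library. A Cxxc5 UMI was present in 0.866% of these knockdown cells and in 12.2% of these control cells.

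The first comparison was how many cells of each culture met the rule. Monocyte-lineage cells were fewer in the knockdown library, 693 of 6004 cells or 11.5% (10.7 to 12.4%), against 518 of 2912 cells or 17.8% (16.4 to 19.2%) in the control library, a ratio of 0.649. Because a minimum of 4 UMIs is harder to reach in a shallow cell, the choice was repeated after every cell had been thinned to 5000 UMIs, which left out 641 knockdown and 115 control cells. The shares were then 5.30% (4.71 to 5.93%) and 9.08% (8.04 to 10.2%). At 5000 UMIs the minimum of 4 UMIs, and not 0.03%, sets the limit, so these shares also reflect a stricter choice. With the 0.03% share alone and no minimum number of UMIs they were 13.9% and 18.8%, a ratio of 0.741, the nearest to 1 of the 9 settings. With at least 8 UMIs and 0.06%, the stricter choice, they were 4.43% and 9.10%. The intervals of the libraries, which cover counting error only, did not overlap in any of the 9 settings. These settings reuse cells of the same libraries and are not separate checks. The minimum of 4 UMIs, and not the share, was the binding limit in 78.5% of knockdown cells and in 35.7% of control cells, and what part of the difference in shares depth has beyond these settings was not tested.

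**Figure D1:**
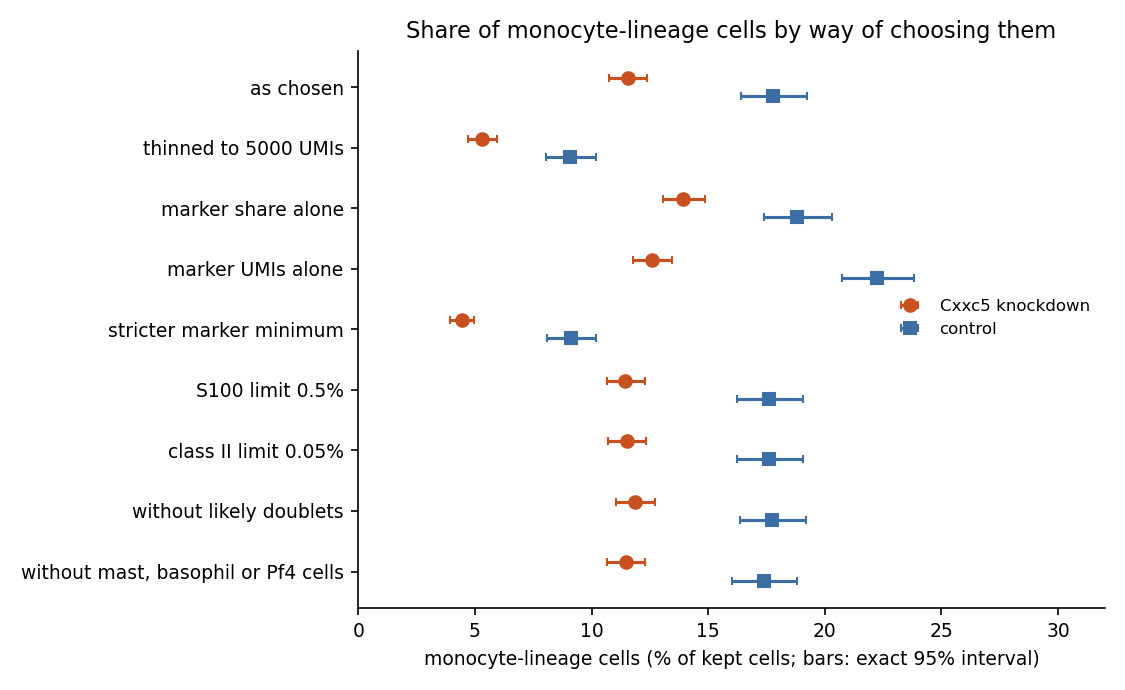
Percent of kept cells that met the rule in the Cxxc5 knockdown library (circles) and the control library (squares), for the choice as given and for each other setting; bars are exact 95% intervals. The knockdown library lies at the lower share in each row, from 4.43% against 9.10% with the stricter minimum to 13.9% against 18.8% with the share alone.

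The marker transcripts were also summed over all cells, with no limit per cell; since the rule used these same transcripts, the sums describe the share difference in another way and do not support it. Over all kept cells the 6 markers together had 137 CPM in the knockdown library and 192 CPM in the control library, a log2 ratio of -0.49 (-0.53 to -0.44). Csf1r (chr18:61100598-61132149) had 5.36 and 10.7 CPM and Ccr2 (chr9:124101950-124113557) had 22.9 and 40.5 CPM. Ms4a6c (chr19:11469366-11482192), which encodes a membrane protein of the Ms4a family, had 15.5 and 22.4 CPM. Irf8 (chr8:120736358-120756694) had 40.9 and 56.4 CPM. F13a1 (chr13:36867178-37050244), the A subunit of coagulation factor XIII, had 19.0 and 23.5 CPM. Lpl (chr8:68880491-68907448), which encodes lipoprotein lipase, had 33.7 and 38.8 CPM. All 6 were lower in the knockdown library, Csf1r by the most with a fold of 0.501 and Lpl by the least with 0.867. These sums take in the dendritic-like and other cells that the rule leaves out.

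Within the chosen cells the markers are fixed in part by the rule, so their levels are a description. Csf1r had 27.4 CPM in knockdown and 38.1 CPM in control cells, and Ccr2 had 123 and 166 CPM. F13a1 had 83.1 and 81.6 CPM, Irf8 241 and 235 CPM, Ms4a6c 87.3 and 93.1 CPM, and Lpl 147 and 133 CPM. Irf8 was found in 82.5% of knockdown and 85.1% of control cells, Ccr2 in 61.3% and 85.3%, and Csf1r, the marker found in the fewest cells, in 24.0% and 45.6%. One or more UMIs of 4 to 6 of the markers were found in 38.7% of knockdown cells (35.0 to 42.4%) and 62.7% of control cells (58.4 to 66.9%), at the unequal depths given above.

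Each marker was also read in cells chosen by the other 5 markers, so that its own level did not enter the choice. Ccr2 had 101 CPM over 565 knockdown cells and 154 CPM over 416 control cells, a log2 ratio of -0.61 (-0.75 to -0.47). Csf1r had 24.6 and 36.9 CPM, a log2 ratio of -0.58 (-0.85 to -0.32). The other 4 markers were nearer to equal, with log2 ratios of -0.19 for Irf8, -0.19 for Ms4a6c, -0.08 for F13a1 and -0.02 for Lpl. With every cell thinned to 5000 UMIs before the choice, Ccr2 had a ratio of -0.64 (-0.96 to -0.32) and Csf1r of -0.53 (-1.11 to 0.04), while Irf8 moved to -0.44, Lpl to -0.51 and F13a1 to 0.29. The interval of Irf8 was -0.31 to -0.08 before and -0.74 to -0.15 after thinning, and that of Lpl after thinning was -0.96 to -0.07. Ms4a6c was at -0.14 (-0.49 to 0.21) after thinning. All markers but F13a1 were thus lower in the knockdown library at either depth. The intervals of Csf1r and Ms4a6c after thinning took in equal levels, and the order of the other 4 markers changed with depth.

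Droplets also take up free RNA, so the markers were checked in late neutrophil-like cells, which should lack them. These were 245 knockdown and 186 control cells with at least 1% S100a8 and S100a9 and at least 5 Ltf UMIs. After thinning to 5000 UMIs a Ccr2 UMI was found in 39.8% of 659 monocyte-lineage knockdown cells and 55.0% of 500 control cells. In the neutrophil-like cells it was found in 0.532% of 188 knockdown cells and in 0 of 165 control cells, with an upper limit of 2.21%. Irf8 was found in 60.8% of monocyte-lineage cells of each library, against 1.60% of neutrophil-like cells in the knockdown library and 0 of 165 in the control library. Ccr2 and Irf8 helped to choose the monocyte-lineage cells, so only the values of the neutrophil-like cells bear on free RNA. Median depths before thinning were 7187 and 11031.5 UMIs in the neutrophil-like cells.

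The label was then checked by comparing monocyte-lineage cells with the other kept cells of the same library. Of 4998 genes with at least 20 CPM in monocyte-lineage cells of a library, 212 (4.24%) were at least 1.5-fold higher and 134 (2.68%) at least 1.5-fold lower than in other cells in both libraries. Genes of the rule are counted among them, 6 of the higher and 2 of the lower ones, and the genes named next are not of the rule. Counts over gene lists below are over the listed genes among these 4998, called measured. Since the 6 markers chose the cells, genes that go along with them are higher by that choice, and the folds are given with no test. Klf4 (chr4:55527143-55532466), a transcription factor that monocytes need to form, had 37.9 CPM in knockdown monocyte-lineage cells and 46.6 CPM in control ones, against 1.47 and 1.57 CPM in other cells. It was 25.8-fold higher than in other cells in the knockdown library and 29.6-fold in the control library. Mpeg1, which encodes a pore-forming protein of macrophages, was 4.79-fold and 4.35-fold higher, and Cd68, a lysosomal glycoprotein of macrophages, 2.45-fold and 3.04-fold. Irf5, a transcription factor of inflammatory macrophages, was 6.84-fold and 6.10-fold higher, and Zeb2, a repressor active in myeloid cells, 2.35-fold and 2.33-fold.

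Lysosomal genes were often high in these cells. Of 24 measured genes of the lysosome list, 8 were at least 1.5-fold higher and 2 at least 1.5-fold lower than in other cells in both libraries. Ctss (chr3:95526786-95556403), the protease cathepsin S, had 54.2 and 55.0 CPM, against 5.25 and 9.37 CPM in other cells of the same libraries. Psap (chr10:60277627-60302597), the precursor of the saposins that help break down sphingolipids, had 400 CPM in knockdown and 498 CPM in control monocyte-lineage cells, against 88.3 and 95.9 CPM in other cells. Cathepsin genes Ctsh and Ctsc were 4.84-fold and 3.19-fold higher in the knockdown library and 4.42-fold and 4.32-fold higher in the control library. Cd63, a tetraspanin of granule and lysosome membranes, was among the 2 lower genes, at 0.232 and 0.294 of the level in other cells.

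Genes of cell movement and the cytoskeleton formed a second such group. Of 21 genes of the calcium-binding and cytoskeleton list, 10 were higher and 4 lower by at least 1.5-fold in both libraries. S100a4 (chr3:90603771-90606045), a calcium-binding protein linked to motility, was 5.85-fold and 5.10-fold higher, and Ahnak, a very large scaffold protein, 12.3-fold and 12.1-fold. Vim, which encodes the filament protein vimentin, was 2.59-fold and 2.08-fold higher, and Lgals3, which encodes galectin 3, 3.01-fold and 2.37-fold. In the homing and adhesion list 5 of 12 genes were higher and 1 was lower. The integrin gene Itgb7 was 5.98-fold and 5.70-fold higher, while Itgb2, the common chain of the leukocyte integrins, was at 0.43 and 0.49 of the other cells. Milr1, an inhibitory receptor of the immunoglobulin family, was 6.54-fold and 6.38-fold higher, and Tifab, a regulator of TRAF6 signalling, 5.25-fold and 5.71-fold.

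**Figure D2:**
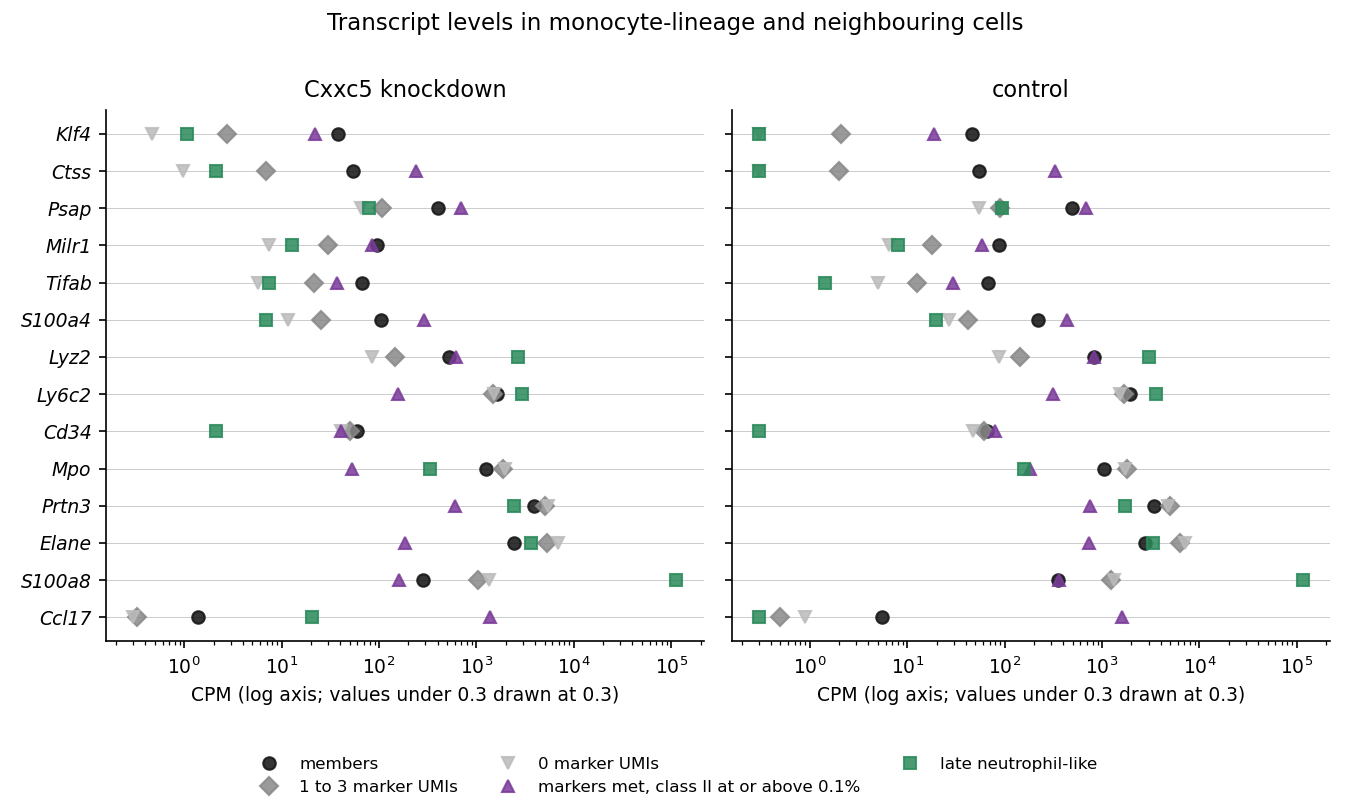
Level of genes outside the marker sum (CPM, log axis) in monocyte-lineage cells (circles), cells with 1 to 3 marker UMIs (diamonds), cells with 0 marker UMIs (downward triangles), cells that met the marker limits but had class II transcripts at or above 0.1% (upward triangles), and late neutrophil-like cells (squares), in the Cxxc5 knockdown library (left) and the control library (right). In both libraries Klf4 is highest in monocyte-lineage cells, at 37.9 and 46.6 CPM, while Ctss and Ccl17 are highest in the cells with class II transcripts.

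Some textbook monocyte markers did not set the cells apart from other cells or from neutrophil-like cells. Ly6c2, a surface marker of inflammatory monocytes, had 1616 and 1924 CPM in monocyte-lineage cells and 1826 and 2269 CPM in other cells, and 2961 and 3543 CPM in late neutrophil-like cells. Lyz2, which encodes lysozyme, had 520 and 824 CPM and was 2.0-fold higher than in other cells in each library, but it had 2686 and 3057 CPM in late neutrophil-like cells. Of the 12 listed monocyte markers outside the rule, 6 reached 20 CPM, and 4 of these were at least 1.5-fold higher than in other cells in both libraries. Ly6c2 and Fcgr3 were not among the 4. In the knockdown library Fcgr3 had 84.9 CPM in monocyte-lineage cells and 85.1 CPM in cells with 0 marker UMIs. Under 20 CPM, Itgam had 12.4 against 16.2 CPM and Cd14 10.9 against 9.06 CPM there, while Ly86 had 4.97 against 0.039 CPM. Cx3cr1, high in patrolling monocytes, had only 4.20 and 7.25 CPM. Cd209a, a marker of dendritic-leaning monocytes, had no UMI in any of these cells.

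Primary granule transcripts were still found in the chosen cells, most of them at a lower level than in other cells. What part of them came from free RNA was not tested. Of 11 measured primary granule genes, 9 were at least 1.5-fold lower than in other cells in both libraries and none was higher by that much. Elane, which encodes neutrophil elastase, had 2417 and 2753 CPM in monocyte-lineage cells, against 7382 and 7927 CPM in other cells. Mpo, which encodes myeloperoxidase, had 1240 and 1057 CPM, against 1871 and 1585 CPM in other cells. Prtn3, which encodes proteinase 3, had 3888 and 3410 CPM, against 5462 and 4897 CPM. Mpo and Prtn3 were the granule genes that did not reach 1.5-fold in both libraries. The neutrophil transcription factor genes Gfi1 and Cebpe were at 0.265 and 0.116 of the other cells in the knockdown library and at 0.26 and 0.108 in the control library. Mmp8, a collagenase best known from neutrophil granules, was the exception among 7 measured genes of the later granules, at 37.8 and 51.1 CPM against 2.47 and 2.82 CPM in other cells, while Ngp, Lcn2, Chil3 and Stfa1 were lower. Cd34, a marker of early progenitors, had 60.1 and 66.0 CPM, 1.74-fold and 1.71-fold higher than in other cells.

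Cells on either side of the limits were compared. Among cells that met the share and both exclusions, those with 4 marker UMIs, just inside, were 97 knockdown and 24 control cells, and those with 3, just outside, were 67 and 13 cells. Psap had 289 and 350 CPM in the cells just inside, against 202 and 165 CPM in the cells just outside. Klf4 had 26.7 and 32.2 CPM just inside, and 22.7 and 10.3 CPM just outside, where it was found in 7.69% of the 13 control cells. Lyz2 had 440 and 1068 CPM just inside, and 395 and 207 CPM just outside. Ctss had 29.9 and 32.2 CPM just inside, and 24.9 and 10.3 CPM just outside. Neither rose evenly in the knockdown library, with Lyz2 at 289 CPM in cells with 5 marker UMIs and Ctss at 39.2 CPM with 2. Cells near the S100a8 and S100a9 limit were few, with 6 knockdown and 5 control monocyte-lineage cells between 0.5% and 1%, and those near the class II limit were 2 and 5 cells between 0.05% and 0.1%. Cells near the minimum of marker UMIs were thus many, and cells near the other limits few.

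Cells that met the marker limits but had class II transcripts at or above 0.1%, 37 in the knockdown and 46 in the control library, differed from the monocyte-lineage cells in several ways. Their Csf1r level was 93.3 and 114 CPM, and their Ctss level 239 and 329 CPM. Ccl17, a chemokine of activated dendritic cells, had 1375 and 1606 CPM there, against 1.40 and 5.52 CPM in monocyte-lineage cells. Klf4 had 21.8 and 19.0 CPM, and Elane 187 and 739 CPM. Cells that met the marker limits with S100a8 and S100a9 at or above 1% were only 11 knockdown and 5 control cells, and none exceeded both limits.

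The monocyte-lineage cells were then divided into tertiles by the summed share of the 6 markers, with limits at 0.0514% and 0.0845% over both libraries. The knockdown library had 35.4% of its cells in the bottom, 32.9% in the middle and 31.7% in the top tertile, and the control library 30.7%, 33.8% and 35.5%. Of 2618 genes with at least 50 CPM, 52 (1.99%) were at least 1.5-fold higher and 38 (1.45%) at least 1.5-fold lower in the top than in the bottom tertile in both libraries. Genes of the rule made up 5 of the higher and 1 of the lower ones. The 5 are markers, whose direction the sorting sets. The lower one is S100a8, which is not in the sorted sum. For these contrasts among the cells, measured list genes are those among the 2618. Median depth fell along the tertiles, with 12740, 11554 and 9108 UMIs in the knockdown and 21432, 18959 and 13882.5 UMIs in the control library, and its part in these differences was not tested.

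Of 17 measured lysosome genes, 7 were higher and 1 was lower in the top than in the bottom tertile, and of 19 of the calcium-binding and cytoskeleton list, 9 were higher and 1 was lower. Lyz2 had 278, 517 and 911 CPM from the bottom to the top tertile in the knockdown library, and 498, 711 and 1381 CPM in the control library. Psap had 257, 419 and 605 CPM in the knockdown and 303, 518 and 718 CPM in the control library. Ctss had 34.1, 46.7 and 96.5 CPM in the knockdown and 23.6, 54.2 and 95.5 CPM in the control library. Each step lay outside the counting interval of the step before for Lyz2 and Psap in both libraries.

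Of 11 measured primary granule genes, 7 were lower in the top tertile and none was higher. Elane had 2949, 2195 and 1859 CPM in the knockdown and 3342, 2853 and 1879 CPM in the control library. Mpo had 1477, 1158 and 971 CPM and 1316, 1042 and 748 CPM in the same order. Nkg7, a granule membrane protein, was lowest of the 2618 genes by the smaller of the ratios of the libraries, with 80.0 CPM in the top and 190 CPM in the bottom tertile of the knockdown library and 64.8 and 229 CPM in the control library. Ly6c2 changed little, with 1480, 1639 and 1803 CPM in the knockdown and 1878, 1971 and 1924 CPM in the control library. None of the measured genes of the lists for S phase (20) and for the G2 and M phases (19) was 1.5-fold apart between the tertiles in both libraries.

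**Figure D3:**
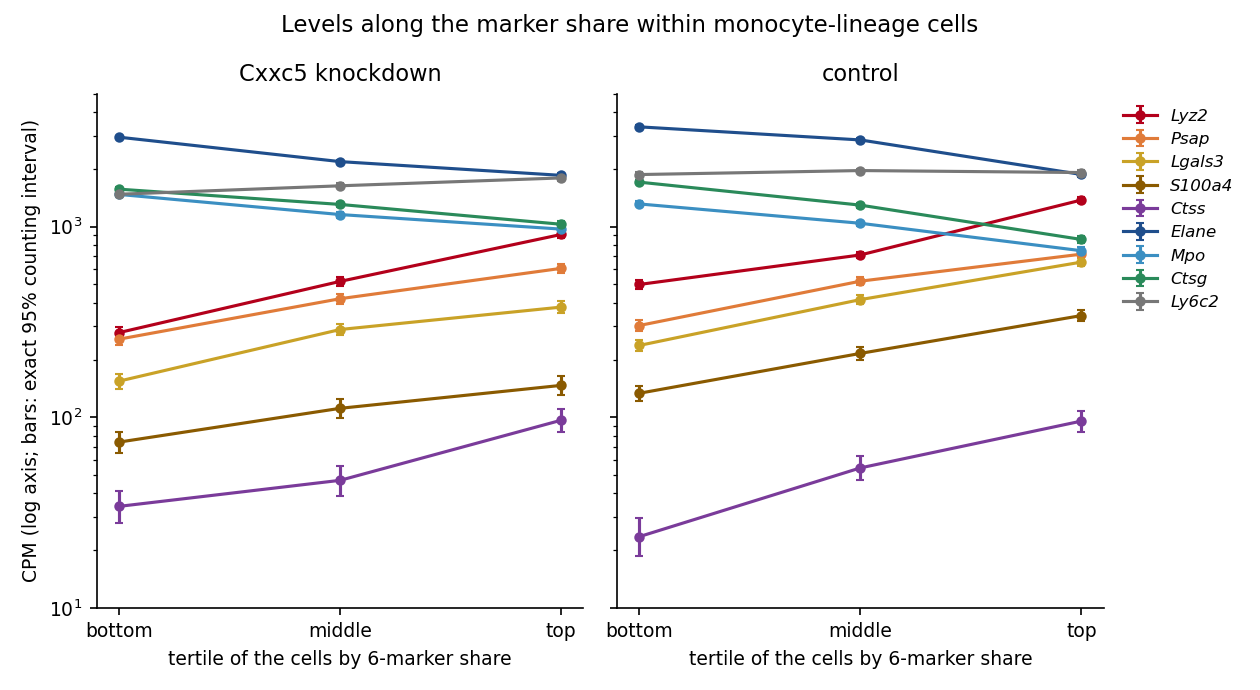
CPM (log axis) of genes outside the marker sum in the bottom, middle and top tertile of monocyte-lineage cells by marker share, in the Cxxc5 knockdown library (left) and the control library (right); bars are exact 95% counting intervals. Lyz2, Psap, Lgals3, S100a4 and Ctss climb and Elane, Mpo and Ctsg descend in both libraries, while Ly6c2 stays between 1480 and 1971 CPM.

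The markers themselves did not go up and down together. Most marker UMIs came from Irf8 in 36.2% of knockdown and 37.5% of control cells and from Lpl in 20.5% and 17.8%, cells with ties left out. Ccr2 led in 13.1% of knockdown cells (10.7 to 15.9%) and 19.7% of control cells (16.4 to 23.4%), F13a1 in 7.36% and 8.30%, and Ms4a6c in 5.05% and 5.02%. Across cells, the log levels of Irf8 and Ms4a6c had Pearson's r of 0.25 over 693 knockdown cells and 0.37 over 518 control cells. Irf8 and Lpl had r of -0.33 and -0.27, and Lpl and Ms4a6c had r of -0.32 and -0.28. These cells share a library, a depth range and a minimum on the sum of the markers, which by itself makes cells low in one marker high in another, so the negative values in particular are descriptions of the chosen cells.

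Genes outside the rule also differed between cells led by Lpl and cells led by Irf8. Of 2618 genes, 29 (1.11%) were at least 1.5-fold higher and 24 (0.917%) at least 1.5-fold lower in Lpl-led cells in both libraries, genes of the rule included, which were 1 of the higher and 2 of the lower ones. Of 5 measured genes of the multipotent progenitor list, 2 were lower in Lpl-led cells and none higher. The genes named here were chosen after their values were seen. Cd34 (chr1:194938819-194961279) had 13.5 CPM in the 142 Lpl-led and 76.0 CPM in the 251 Irf8-led cells of the knockdown library, and 14.3 and 64.2 CPM in the 92 Lpl-led and 194 Irf8-led cells of the control library. Sox4, a transcription factor of early progenitors, had 13 and 61.9 CPM in the knockdown and 14.3 and 52.1 CPM in the control library. Bcl2, which protects cells from apoptosis, had 23.1 and 85.9 CPM, and 23.8 and 56.2 CPM. Mef2c, a transcription factor of lymphoid and myeloid progenitors, had 58.1 and 115 CPM, and 52.9 and 81.9 CPM.

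In Lpl-led cells 2 of 17 measured lysosome genes, 4 of 19 of the calcium-binding and cytoskeleton list and 1 of 5 chemokine and signalling genes were at least 1.5-fold higher in both libraries, and none of these lists had a lower one. The chemokine gene Ccl6 had 138 CPM in Lpl-led and 54.1 CPM in Irf8-led cells of the knockdown library, and 279 and 70.4 CPM in the control library. Lgals3 had 407 and 204 CPM in the knockdown and 765 and 292 CPM in the control library. Naaa, a lysosomal lipid amidase, had 66.0 and 23.3 CPM in the knockdown and 99.3 and 29.5 CPM in the control library. Csf2rb, the common beta chain of the GM-CSF receptor, had 147 and 85.6 CPM, and 205 and 98 CPM. Cebpb, a transcription factor of macrophages, had 127 and 82.4 CPM, and 125 and 64.4 CPM. Median depths were 12507 and 11349 UMIs in Lpl-led and Irf8-led knockdown cells and 18740.5 and 19679 UMIs in control cells.

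**Figure D4:**
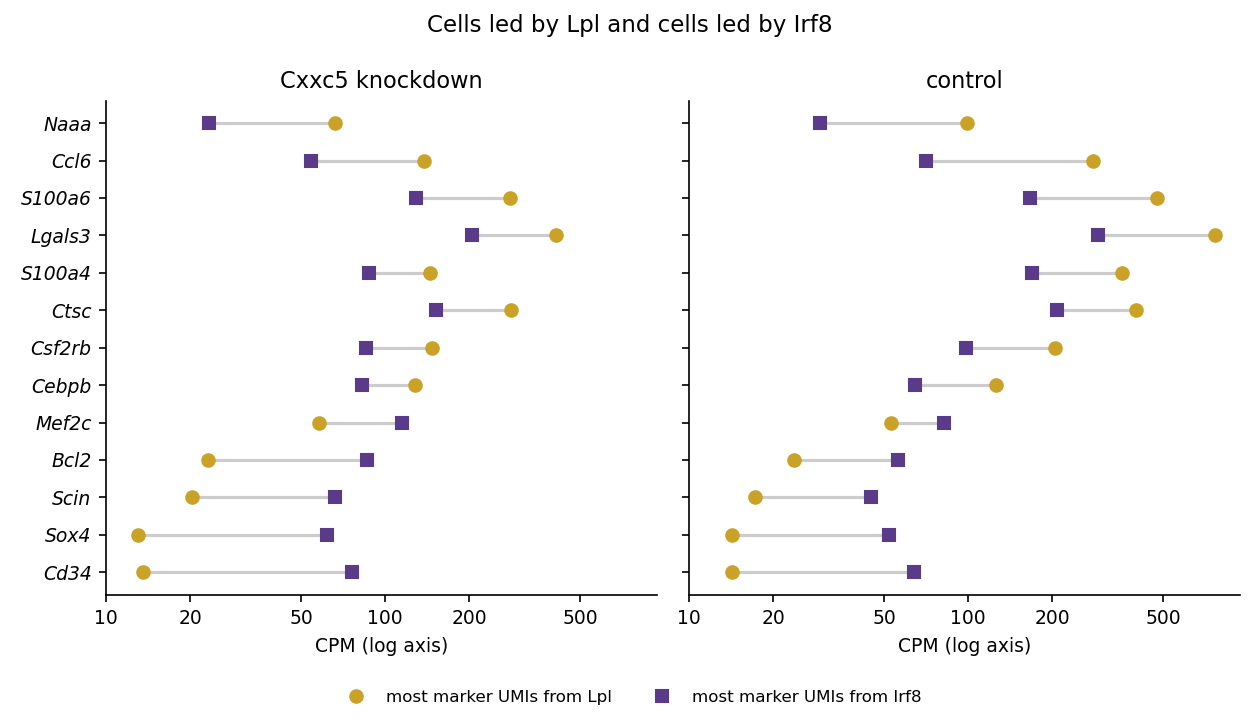
CPM (log axis) of genes outside the marker sum in monocyte-lineage cells with most marker UMIs from Lpl (circles) and from Irf8 (squares), in the Cxxc5 knockdown library (left) and the control library (right). In both libraries Cd34, Sox4, Scin, Bcl2 and Mef2c lie lower, and Naaa, Ccl6, S100a6, Lgals3, S100a4, Ctsc, Csf2rb and Cebpb higher, in Lpl-led cells; Cd34 is at 13.5 against 76.0 CPM in the knockdown library.

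The last comparison was between the monocyte-lineage cells of the libraries. Of the 4998 genes compared, 279 (5.58%) were at least 1.2-fold higher and 307 (6.14%) at least 1.2-fold lower in knockdown cells, with 11 (0.22%) and 39 (0.78%) at 1.5-fold. A gene entered this comparison when it reached 20 CPM in either library. A gene that reached it in the control library alone could only be lower or near equal. A gene that reached it in the knockdown library alone could only be higher or near equal. Most genes were close, with 4412 within 1.2-fold and a median log2 ratio of 0.02 over all. In the other kept cells, 178 of 4780 genes (3.72%) were higher and 204 (4.27%) lower. Ratios in these other cells, from the same pair of libraries, are given below for some genes and lists only.

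S100a4 had the lowest log2 ratio among genes of at least 50 CPM, -1.08 (-1.20 to -0.96), at 105 CPM in knockdown and 222 CPM in control monocyte-lineage cells. An S100a4 UMI was found in 52.4% of knockdown and 79.3% of control cells, and after thinning to 5000 UMIs in 32.2% and 56.2%, against 4.26% and 6.06% of late neutrophil-like cells. Its ratio in other cells was -1.28. Lgals3 (chr14:47367751-47386160) had 257 and 419 CPM, a ratio of -0.70 (-0.78 to -0.63), against -1.05 in other cells. S100a6, another calcium-binding protein, had 177 and 281 CPM, a ratio of -0.67, against -0.99 in other cells. Myl10, a myosin light chain gene, had 61.7 and 120 CPM, a ratio of -0.96, against -1.20.

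In the whole calcium-binding and cytoskeleton list 12 of 21 genes were lower and 0 higher in knockdown cells, with a median log2 ratio of -0.29 against 0.02 over all genes compared. Ahnak had 24.1 and 42.7 CPM, a ratio of -0.83 (-1.09 to -0.57). Others stayed near equal, with ratios of -0.05 for Vim and 0.02 for Tmsb10, which encodes a thymosin, while Tagln2, a transgelin gene, had 659 CPM in each library. In other kept cells the median of the list was -0.41.

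Monocyte genes outside the rule were lower or near equal. Of the 6 measured monocyte markers, 3 were lower and 0 higher in knockdown cells, with a median log2 ratio of -0.27. Their median in other kept cells was -0.33. Lyz2 (chr10:117277331-117282321) had 520 CPM in knockdown and 824 CPM in control cells, a ratio of -0.66 (-0.72 to -0.61), and the ratio in other cells was also -0.66. Fcgr3, a low-affinity receptor for IgG, had 84.9 and 129 CPM, a ratio of -0.60, against -0.48 in other cells. Klf4 had 37.9 and 46.6 CPM, a ratio of -0.30 (-0.52 to -0.08). The other 3 were within 1.2-fold, with ratios of -0.25 for Ly6c2, -0.20 for Mpeg1 and 0.20 for Cd68.

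Of 22 listed monocyte transcription factors 12 were measured, and 4 were lower and 0 higher. Their median was -0.18, against -0.01 in other kept cells. Irf5 had 41.8 and 54.4 CPM, a ratio of -0.38, and Klf2, a factor of quiescent monocytes, had 27.1 and 34.5 CPM, a ratio of -0.35. Spi1, which encodes PU.1, the master regulator of myeloid cells, had 295 and 335 CPM, a ratio of -0.18. Zeb2, Runx1 and Cebpa had ratios of 0.08, 0.07 and 0.03, and Tfec had 188 CPM in each library. Of 21 receptors for colony-stimulating factors and cytokines 10 were measured, and 3 were lower and 0 higher, among them Csf2rb at 102 and 125 CPM.

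Chemokine and signalling genes were lower more often than not, 5 of 6 measured genes of 23 listed, with a median of -0.47. Other kept cells had a median of -0.36 for this list. Ccl6 had 82.4 and 132 CPM, a ratio of -0.68 (-0.82 to -0.54), and Ccl9 had 254 and 326 CPM, a ratio of -0.36. Nfkbia, the inhibitor of NF-kB that is induced by it, had 40.1 and 61.7 CPM, a ratio of -0.62. Ccl3 had 15.7 and 23.6 CPM, a ratio of -0.59, and entered through the control library alone, so it could not be counted as higher. Of 32 Fc and pattern receptor genes 10 were measured, and 4 were lower and 0 higher. Lilrb4a, an inhibitory receptor, had 11.6 and 21.7 CPM, a ratio of -0.91 (-1.28 to -0.54). It too entered through the control library alone and could not be counted as higher.

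Lysosomal genes were nearer to equal, with 6 of 24 measured genes of 27 listed lower, 0 higher and a median of -0.12. The median of this list was also -0.12 in other kept cells. Ctsc had 183 and 249 CPM, a ratio of -0.45, against -0.01 in other cells. Psap had a ratio of -0.31 (-0.38 to -0.25), against -0.12 in other cells, and Ctss a ratio of -0.02 (-0.21 to 0.17), against -0.83. Whether the ratios of the cell groups differ beyond the spread between cultures could not be tested with 1 library each. For Ctss, the other cells take in the marker-positive cells with class II transcripts, where its level was higher than in monocyte-lineage cells. These were 0.616% of knockdown and 1.58% of control kept cells, and their part in the ratio of -0.83 was not tested.

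Genes of the later neutrophil granules were lower too, 5 of 7 measured genes of 17 listed, with a median of -0.34. Other kept cells had a median of -0.47 for these genes. Chil3, a chitinase-like protein of myeloid cells, had 56.1 and 96.9 CPM, a ratio of -0.79, and the 10 richest cells held 32% and 41.5% of its UMIs. Of 11 measured primary granule genes 1 was higher and 2 were lower, with a median of 0.01. Mpo had a ratio of 0.23 (0.19 to 0.27), Prtn3 of 0.19 and Elane of -0.19. Prss57, a serine protease of azurophil granules, was the higher one, at 52.3 and 38.7 CPM.

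**Figure D5:**
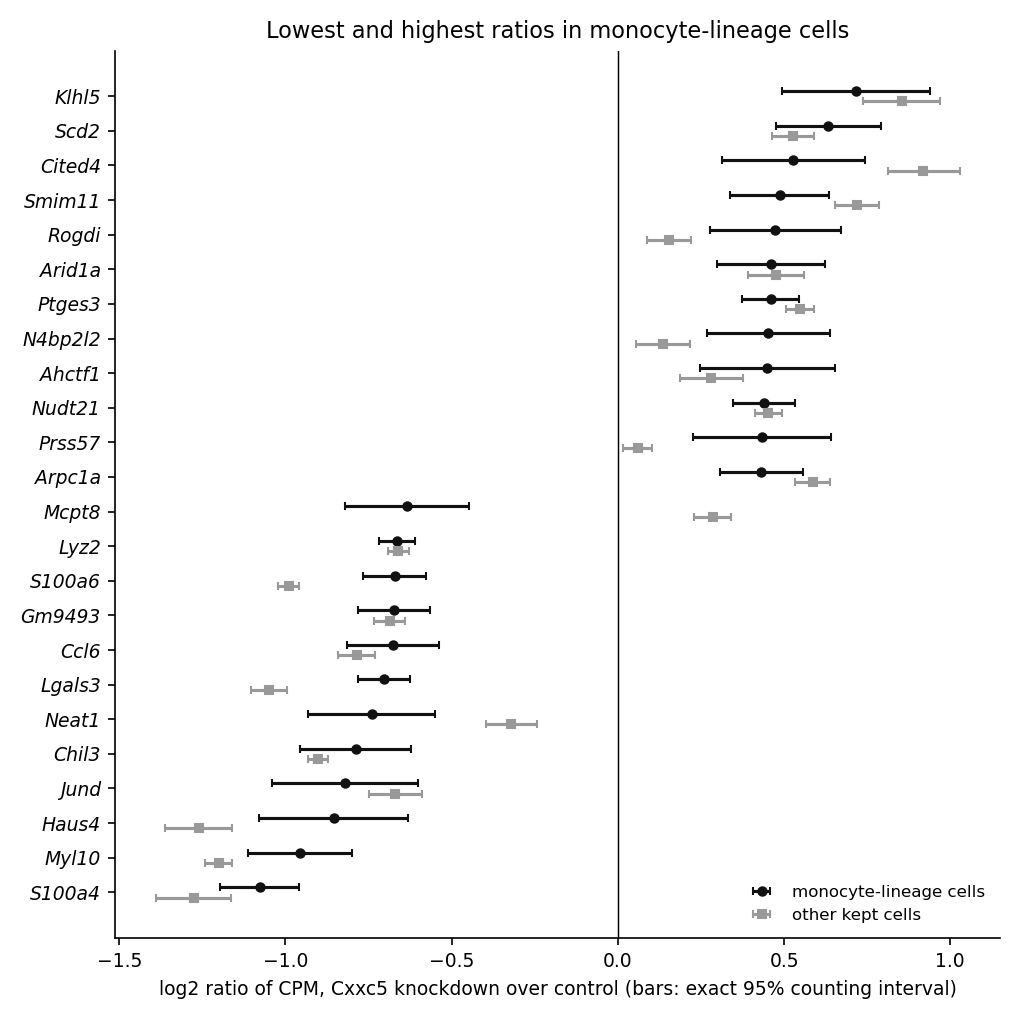
Log2 ratio of CPM, Cxxc5 knockdown over control, for the genes with the 12 lowest and the 12 highest ratios at 50 CPM or more in monocyte-lineage cells (circles), with the ratio of the same genes in other kept cells (squares); bars are exact 95% counting intervals. Mcpt8, at -0.63 and 0.28, is the one gene drawn on opposite sides of 0, and its ratio in monocyte-lineage cells turned to 0.34 without the 10 richest cells of each library. Some of the lowest, among them Haus4, Jund and Mcpt8, reached 50 CPM in the control library alone, so this limit could admit them only with a lower ratio.

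Among the 12 highest ratios, Klhl5, an adaptor of a ubiquitin ligase, had 51.2 CPM in knockdown and 31.2 CPM in control monocyte-lineage cells, a log2 ratio of 0.72 (0.49 to 0.94). Scd2, which encodes a stearoyl-CoA desaturase, had 97.8 and 63.1 CPM, a ratio of 0.63 (0.48 to 0.79). Cited4, a transcriptional co-activator, had 50.7 and 35.2 CPM, a ratio of 0.53. Other kept cells had ratios of 0.85, 0.53 and 0.92 for these genes. Klhl5 and Cited4 reached 50 CPM in the knockdown library alone, so this limit could admit them only with a higher ratio. Ccnd2, which encodes cyclin D2, had 296 and 229 CPM, a ratio of 0.37, and Cd44, an adhesion receptor, 87.1 and 70.6 CPM, a ratio of 0.30. Of 25 genes each of the S phase list and the list for the G2 and M phases, 0 and 1 were higher and none was lower, with medians of 0.01 and 0.11. Top2a, a topoisomerase of dividing cells, had 303 and 260 CPM, a ratio of 0.22.

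Transcripts of mast cells, basophils and megakaryocytes were present in the chosen cells, and at a higher level in the control library, a direction that rests on few cells. Without the 10 richest cells of each library the log2 ratio turned to 0.85 for Pf4 and to 0.34 for Mcpt8. Without the cells rich in mast, basophil or Pf4 transcripts that of Pf4 turned to 0.68, and among cells with at least 3 markers that of Cpa3 turned to 0.99. The 11 mast cell and basophil genes summed to 61.6 CPM in knockdown and 155 CPM in control monocyte-lineage cells, and to 255 and 269 CPM in other cells. At least 3 UMIs of Cpa3, Fcer1a and Ms4a2 were found in 4 knockdown and 11 control cells, and 1 control cell held 194 UMIs of Pf4, a platelet chemokine. Cpa3, a mast cell protease, thus had 3.56 and 20.4 CPM, with 96.3% of the control UMIs in 10 cells. The 12 megakaryocyte and erythroid genes summed to 13.1 and 41.4 CPM, with Gp1bb and Car1 among the genes at 0 in both, and the 18 lymphoid, eosinophil and stromal genes summed to 155 and 139 CPM. Without the cells rich in mast, basophil or Pf4 transcripts the shares of monocyte-lineage cells were 11.5% and 17.4%, and 268 genes were higher and 300 lower in knockdown cells. The later neutrophil granule genes summed to 412 and 544 CPM, with Ltf at 2.55 and 1.41 CPM.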

How the data were processed

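The authors deposited raw UMI counts per gene and cell barcode from 10x Genomics 3' version 2 libraries, for which the submitters' processing notes name Cell Ranger 2.1.1 and mm10. The gene annotation they counted against is not given in the sources used here. Ensembl identifiers were located in GENCODE M21 (GRCm38), where 28339 of 28692 were found. Which alignments to gene families with close copies, such as Ly6c2, Ms4a6c and Csf2rb, were counted is not stated, so their levels are less certain. The limits on genes and mitochondrial UMIs removed 11 knockdown and 13 control barcodes, all for the latter. Scrublet (scanpy 1.11.5) marked 6 knockdown (0.1%) and 1 control (0.034%) cells, too few to have worked, and doublets were kept. The alternative without likely doublets left out the 288 knockdown and 68 control cells with the highest of these same scores. It is therefore a weak check on doublets.

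UMIs were summed over cells and given as CPM of the summed total, with exact Poisson intervals; shares have Clopper-Pearson intervals and ratios binomial ones on the UMIs of both libraries, all 95%. They treat UMIs as independent, so they understate the error where UMIs sit in few cells. With 1 library per group no p-value was computed; genes at least 1.2-fold apart, or 1.5-fold in both libraries for contrasts within a library, were counted. The arithmetic was tested on simulated counts. Genes were named by rule: Cxxc5, the rule's genes, the 12 highest and 12 lowest ratios and the 15 highest folds over other cells (at least 50 CPM), up to 5 of each list by level plus those 1.5-fold apart, and the 6 ends of the contrast of tertiles; further ones from the lists, the Lpl and Irf8 contrast and the lower folds were chosen after their values were seen. Of 455 listed genes 452 were in the files; a few enter the counts but are not reported here by name. The rule, the lists and the genes were chosen with earlier results of these data known. Alternatives changed the limits, depth, scaling, cell weights and doublets.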

Additional observations from a re-analysis of the deposited data

Results flagged for a closer look

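The knockdown over control ratio pointed in opposite directions in monocyte-lineage cells and in the other kept cells for 2 of the named genes past 1.2-fold in both. Mcpt8, a basophil protease, had a log2 ratio of -0.63 in monocyte-lineage cells, at 46.9 CPM in knockdown and 72.7 CPM in control cells, and of 0.28 in other cells, at 123 and 101 CPM. The 10 richest monocyte-lineage cells held 29.9% of its knockdown and 64.4% of its control UMIs. Spp1, which encodes osteopontin, had a log2 ratio of -0.31 in monocyte-lineage cells, at 47.2 and 58.5 CPM, and of 0.49 in other cells, at 54.4 and 38.8 CPM. The 10 richest cells held 14.6% and 42.9% of its UMIs. Without the 10 richest monocyte-lineage cells of each library the ratio turned to 0.34 for Mcpt8 and to 0.26 for Spp1, the same sign as in other cells. Neither difference between the cell groups was tested, since each group had 1 library.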

How the results depend on the processing

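No paired analysis was possible because each group had 1 library. Monocyte-lineage cells made up a smaller share of the knockdown library in each of the 9 settings. Their knockdown and control shares moved to 5.30% and 9.08% with cells thinned to 5000 UMIs, to 13.9% and 18.8% with the marker share alone, to 12.6% and 22.3% with 4 UMIs alone, and to 4.43% and 9.10% with the stricter minimum. The counts of genes higher and lower moved to 86 and 113 at 50 CPM, 2577 and 3127 with no minimum level, 624 and 620 with the cells thinned, and 11 and 39 at 1.5-fold. The stricter minimum gave 560 higher genes. Choosing the cells after thinning, an alternative added after seeing the data like those without mast, basophil or Pf4 cells and with at least 3 markers, gave 877 and 945. With thinning before the choice by the other 5 markers, F13a1 moved to 0.29, Irf8 to -0.44 and Lpl to -0.51. Without the 10 richest cells the log2 ratio turned to 0.85 for Pf4, 0.26 for Spp1 and 0.34 for Mcpt8. Without mast, basophil or Pf4 cells that of Pf4 turned to 0.68, and with at least 3 markers that of Cpa3 to 0.99. With cells chosen after thinning, Pf4 turned to 0.95, Sox4 to -0.081 and Ahctf1 to -0.29. The cause was not tested. Of 62 named genes past 1.2-fold, 56 kept their direction in every setting and 37 stayed past it. Knockdown cells were shallower, so a low transcript is found in fewer of them, and 1 library per group limits every comparison.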

Other observations

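Some listed genes under 20 CPM were far apart between the libraries, and they were picked after their values were seen. Flt3, a receptor of multipotent and dendritic progenitors, had 48 UMIs or 6.11 CPM in knockdown and 17 UMIs or 1.84 CPM in control monocyte-lineage cells, a log2 ratio of 1.73 (0.91 to 2.62). It was found in 38 knockdown (5.48%) and 15 control cells (2.90%), against 0.584% and 0.668% of other cells, and no monocyte-lineage cell held more than 4 of its UMIs. After thinning to 5000 UMIs it was found in 3.19% of 659 knockdown and 1.40% of 500 control cells. Siglech, a marker of plasmacytoid dendritic cells, had 1.91 and 1.19 CPM, and Itgax, which encodes CD11c, 0.637 and 1.08 CPM.

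Ccr1, a chemokine receptor of monocytes, had 5.60 CPM in knockdown and 13.1 CPM in control monocyte-lineage cells, a log2 ratio of -1.22 (-1.76 to -0.72), and was found after thinning in 3.79% and 7.40% of cells. Its ratio in other kept cells was -1.05. Cx3cr1 was found after thinning in 2.43% of knockdown and 3.40% of control cells.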
